A study of Mus musculus with 2 samples.

Results

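The genes described here mark the walls and the content of blood vessels in the brain. They were chosen by symbol, from a list of 38 names for endothelial cells, pericytes, vascular smooth muscle and red blood cells, and 35 of the 38 matched a row among the 31252 gene rows of the count table. The 35 comprised 22 endothelial, 8 pericyte and 4 smooth muscle genes and 1 gene of the erythroid lineage, Alas2. The symbols Anpef, Hba-a1 and Hbb-b1 matched no row and were not analysed here. Ventral midbrain RNA was sequenced from mice aged 2 months on an incipient congenic C57BL/6 background, with 1 library for each genotype. The library labelled Ctrl stands for Slc6a3-Cre mice, in which the gene of the dopamine transporter drives Cre recombinase. The library labelled OE stands for mice that carry both Slc6a3-Cre and the CAG-S-COUP-TFII allele, placed at ROSA26, from which Cre releases COUP-TFII in dopaminergic neurons. In the crosses that the study describes, Ctrl and OE littermates also shared 1 floxed allele of Tfam and a tdTomato reporter, but the sample labels do not name these alleles. Cre expression is thus directed to neurons and not to cells of the vessel wall or the blood.

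Brain capillaries are tubes of endothelial cells sealed by tight junctions, and their transporters and efflux pumps form the blood-brain barrier. Pericytes sit on the capillary wall inside the shared basement membrane, while contractile smooth muscle cells ring arteries and arterioles. Endothelial PDGF-B holds pericytes through their receptor PDGFRβ, and VEGF and angiopoietins act on endothelial receptor tyrosine kinases. COUP-TFII, the product of Nr2f2, is itself known from vascular biology, where it specifies venous identity in endothelium.

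The library labelled Ctrl held 16984336 counts and that labelled OE, the deeper one, 21326632. Where a gene is given with a pair of counts, the first is from the library labelled Ctrl. Each difference is given as a log2 ratio, labelled OE over labelled Ctrl, after TMM scaling for depth and with a pseudocount of 0.5 normalized counts. The bracketed range after a ratio is an exact 95% Clopper-Pearson interval on the split of the counts of that gene. They hold counting error alone, so they set 1 library against the other and say nothing of the spread between mice. With 1 library per genotype, no difference has a replicate check. Nr2f2, the overexpressed gene, had 637 and 377 counts (-1.07, -1.26 to -0.88), which goes against the labels. The study measured the overexpression in isolated dopaminergic neurons, whereas the RNA here is from the ventral midbrain. Whether RNA from the inserted allele is counted in this row is not given in the sources used here. Every direction below is therefore given by label only. Although the labels name dopaminergic neurons as the cell type, all 35 vascular genes were detected in both libraries, with between 6 and 1490 counts, so the RNA is that of whole tissue. Th, the rate-limiting enzyme of dopamine synthesis, had 2499 and 9354 counts (1.59, 1.53 to 1.66).

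Past log2 0.2, the threshold used in the study, 18 of the 35 vascular genes were lower and 0 were higher in the library labelled OE. Over all 15246 genes that averaged 10 counts or more, 16.6% were lower and 17.9% higher by that threshold. The same 18 genes also had a counting interval below 0, as did 9.16% of all tested genes on the lower side and 9.9% on the higher side with an interval above 0. Past log2 0.5, 6 members were lower and 0 higher, against 5.03% and 5.59% of all tested genes, and past log2 1 only Cnn1 was lower, against 1.28%. The median log2 ratio was -0.22 for the 35 genes and 0.0046 for all tested genes. The ratio was below 0 for 29 of the 35 genes and for 49.0% of all tested genes. Counting intervals lay below 0 for 18 members and above 0 for 2, and they included 0 for the other 15. Of all tested genes, 14.4% had an interval below 0 and 15.8% above 0. By cell type, the medians were -0.15 for endothelial, -0.27 for pericyte and -0.87 for smooth muscle genes. In RNA from whole tissue, fewer cells of a type and less RNA per cell cannot be told apart.

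**Figure D1:**
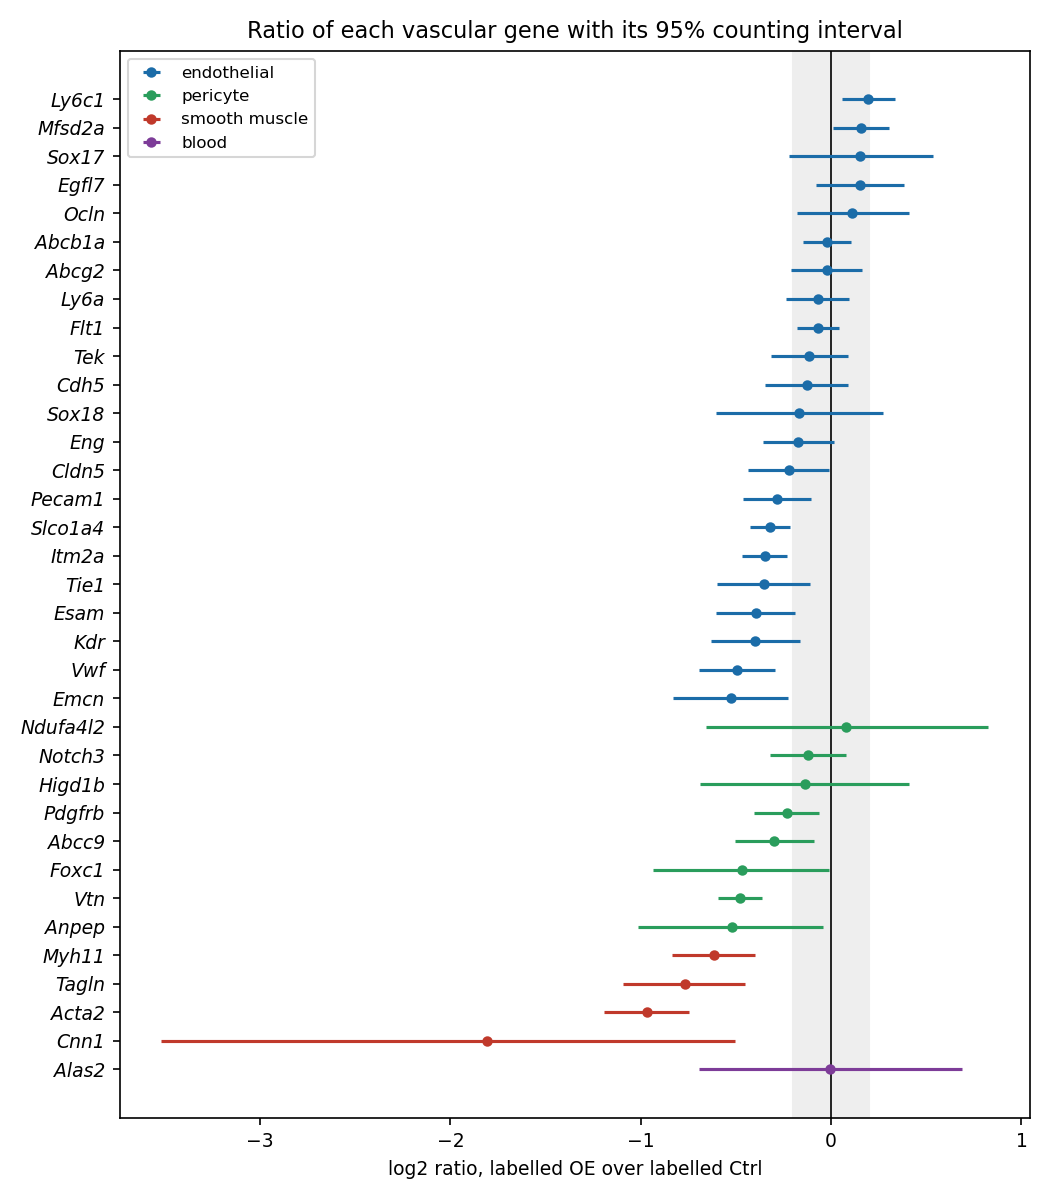
Log2 ratio of each of the 35 vascular genes, labelled OE over labelled Ctrl, on the x axis, with genes in rows by cell type. Points are TMM-scaled ratios, bars are 95% counting intervals from 1 library per genotype, and the grey band spans -0.2 to 0.2. All 4 smooth muscle genes lie left of the band, and no gene lies right of it.

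Among the members, the 4 smooth muscle genes differed most. Acta2 encodes smooth muscle α-actin, the actin of the contractile filaments. It had 435 and 276 counts, a log2 ratio of -0.97 (-1.19 to -0.75). Only 1.36% of all tested genes had a lower ratio. Tagln encodes transgelin, an actin-binding protein of smooth muscle, and had 195 and 142 counts (-0.77, -1.09 to -0.45). Myh11, the smooth muscle myosin heavy chain, had 391 and 317 counts (-0.62, -0.83 to -0.40). Cnn1, or calponin, which restrains actomyosin, was near the detection limit with 18 and 6 counts, and its ratio of -1.81 has a range from -3.52 to -0.50. All 4 genes had fewer counts in the library labelled OE although that library was the deeper one. They lie on 3 chromosomes, with Acta2 at chr19:34241090-34255590, Tagln at chr9:45929619-45936058, Myh11 at chr16:14194535-14291372 and Cnn1 at chr9:22099216-22109630 (GENCODE M21, GRCm38).

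Ratios between genes of the same library do not depend on scaling. For 100 counts of Pdgfrb, which marks pericytes and smooth muscle alike, Acta2 gave 81.3 counts under the label Ctrl and 48.8 under the label OE. Myh11 gave 73.1 and 56.1 counts on the same measure. The tight junction gene Cldn5, whose log2 ratio of -0.22 was close to the -0.23 of Pdgfrb, gave 67.1 and 67.6 counts for 100 of Pdgfrb. Cldn5 is 1 gene only, as the log2 ratios of endothelial members ran from -0.53 to 0.19. Of the summed counts of the 34 endothelial, pericyte and smooth muscle genes, smooth muscle genes held 6.76% (exact binomial 95% interval 6.37% to 7.17%) under the label Ctrl and 4.51% (4.20% to 4.84%) under the label OE. The pericyte share was 18.8% (18.2% to 19.4%) and 17.2% (16.6% to 17.8%), and the endothelial share 74.5% (73.8% to 75.1%) and 78.3% (77.6% to 78.9%). Within the vascular counts, then, the smooth muscle share was lower and the endothelial share higher in the library labelled OE, beyond counting error.

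The smooth muscle program is driven by serum response factor, which binds CArG boxes in the promoters of contractile genes. The RefSeq promoter table matched 23 of the 35 genes, Acta2 and Cnn1 among those of smooth muscle. The 250 bases before the RefSeq start of Acta2 are shown because this gene had more counts than Cnn1, the other smooth muscle gene with a promoter. They lie on the minus strand at chr19:34255374-34255623 (GRCm38.p6), and capitals mark CArG boxes with 1 mismatch in the core of A and T bases.
Acta2: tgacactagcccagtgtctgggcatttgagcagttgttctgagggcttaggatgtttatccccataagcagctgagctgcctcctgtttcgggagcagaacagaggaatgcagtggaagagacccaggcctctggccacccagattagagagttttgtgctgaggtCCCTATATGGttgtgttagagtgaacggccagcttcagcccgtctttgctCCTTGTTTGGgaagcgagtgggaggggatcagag
The capitals start 84 and 34 bases before the RefSeq start. GENCODE M21 places the first base of Acta2 inside this stretch, at position 34255590. No perfect CArG box was found in these windows of Acta2 or Cnn1, and Cnn1 also held none with 1 mismatch. Among all 32851 promoters of the table, 1.47% held a perfect box and 8.59% a box with up to 1 mismatch, on either strand. Boxes with 1 mismatch were not particular to smooth muscle, as 5 of 15 endothelial genes with a promoter held one, namely Egfl7, Eng, Kdr, Ocln and Slco1a4. A match describes letters and is not a binding site shown by these data.

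Pericyte genes were lower to a lesser degree, and 5 of 8 passed log2 0.2 on the lower side. Vtn encodes vitronectin, an extracellular matrix protein that brain pericytes secrete, and was the most abundant of them. It had 1335 and 1191 counts (-0.48, -0.59 to -0.36). Pdgfrb, the receptor that keeps pericytes on the capillary, had 535 and 565 counts (-0.23, -0.41 to -0.061). Abcc9, the sulfonylurea receptor subunit of the vascular potassium channel, had 382 and 386 counts (-0.30, -0.51 to -0.090). Each of these 3 genes had a range below 0, with Vtn the lowest. Anpep, the surface aminopeptidase CD13, and Foxc1, a transcription factor of mural cells, had ratios of -0.52 and -0.47 from at most 86 counts, and their ranges reached -0.044 and -0.012. Notch3, a receptor shared with smooth muscle, had 385 and 440 counts, and its range of -0.32 to 0.081 included 0. Higd1b and Ndufa4l2, with 29 to 62 counts, were too shallow for a difference of this size to be detectable. Summed over the 8 genes, the log2 ratio was -0.34 (-0.42 to -0.27), against -0.80 (-0.94 to -0.66) for the summed smooth muscle genes and -0.15 (-0.18 to -0.11) for the summed endothelial genes.

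Of the 22 endothelial genes, 17 had a ratio below 0, with 9 lower and 0 higher past log2 0.2. Among genes of junctions and the cell surface, 5 of 10 passed the threshold. Emcn encodes endomucin, a sialoglycoprotein of capillary and venous endothelium, and had 202 and 174 counts (-0.53, -0.83 to -0.23). Esam, an adhesion molecule of endothelial junctions, had 389 and 367 counts (-0.40, -0.61 to -0.19). Itm2a, a membrane protein abundant in brain endothelium, had 1162 and 1133 counts (-0.35, -0.47 to -0.23). These 3 had fewer counts in the deeper library. Pecam1, which encodes the junction protein CD31, had a ratio of -0.28 (-0.46 to -0.11), and Cldn5, the main claudin of the blood-brain barrier, -0.22 (-0.44 to -0.012). Cldn5 was the gene nearest to the threshold among those past it, and Eng, the TGF-β co-receptor endoglin, was the nearest among those within it, at -0.17 (-0.36 to 0.013). Cdh5, the VE-cadherin of adherens junctions, had 328 and 373 counts (-0.13, -0.35 to 0.091), and Ocln, the tight junction protein occludin, 169 and 227 (0.11, -0.18 to 0.41), so neither difference was detectable at this depth.

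Ly6c1 and Ly6a encode small lipid-anchored surface proteins of the endothelium. Ly6c1 had 712 and 1013 counts, and its ratio of 0.19 (0.056 to 0.34) was the highest of the 35 genes. Ly6a had 546 and 646 counts (-0.070, -0.24 to 0.096). RSEM divides reads between similar transcripts, and the longest coding transcripts of Ly6c1 and Ly6a in GENCODE M21 share 723 identical bases, or 85.7% of the shorter one. Ly6c2, which is identical to Ly6c1 over 97.6% of its length, was listed at 0 counts in both libraries. The values of Ly6c1 and Ly6a are thus uncertain.

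Receptors and secreted factors of the endothelium also divided. Kdr encodes VEGFR2, the main signalling receptor for VEGF-A, and had 315 and 297 counts (-0.40, -0.63 to -0.16). Flt1 encodes VEGFR1, which binds VEGF-A tightly and acts largely as a decoy, and had 1259 and 1490 counts (-0.070, -0.18 to 0.039). For 100 counts of Flt1 Kdr gave 25.0 counts under the label Ctrl and 19.9 under the label OE. Tie1 and Tek form the receptor pair of the angiopoietin pathway, in which Tek (Tie2) binds the ligand. Tie1 had 280 and 272 counts (-0.35, -0.60 to -0.11), whereas the range of Tek, with 380 and 436 counts, included 0 (-0.11, -0.32 to 0.087). Vwf, the von Willebrand factor stored mainly in endothelium of larger vessels and veins, had 443 and 391 counts (-0.49, -0.69 to -0.29). Egfl7, a secreted regulator of vessel growth, had 267 and 368 counts (0.15, -0.082 to 0.38).

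The 4 transporters of the blood-brain barrier among the members had a median log2 ratio of -0.021, against 0.0046 for all tested genes. Their summed counts had a ratio of -0.10 (-0.17 to -0.036), below 0. Abcb1a encodes the efflux pump P-glycoprotein and had 930 and 1140 counts (-0.019, -0.15 to 0.11). Abcg2, the efflux pump BCRP, had 435 and 532 counts (-0.023, -0.21 to 0.16). Mfsd2a, which carries lysophosphatidylcholine with docosahexaenoic acid into the brain, had 653 and 905 counts (0.16, 0.011 to 0.31). Of the 4 transporters, Slco1a4, the organic anion carrier Oatp1a4, was the lowest at 1460 and 1451 counts (-0.32, -0.43 to -0.22). It alone had a range below 0, and it held the largest part of the summed 3478 and 4028 counts. Outside the members, the organic anion carriers Slco1c1, Slco2b1 and Slc22a8 were at -0.24, -0.32 and -0.45, with ranges below 0. The transporters Slc2a1 and Slc7a5, also outside the members, were at 0.18 and 0.064. Lower values were not limited to organic anion carriers. The carriers Slc38a5, Slc16a1 and Slc38a3 were at -1.37, -0.17 and -0.16, with ranges below 0, and Slc7a1 was at 0.0038. Slc38a5 had only 57 and 27 counts. For 100 counts of Abcb1a, Slco1a4 gave 157 counts under the label Ctrl and 127 under the label OE. Abcb1a has a close relative, Abcb1b, with 88.2% identity over the shorter transcript, so its value is uncertain too, although Abcb1b held only 56.8 and 58.6 counts. The SoxF transcription factors Sox17 and Sox18, which direct arterial and general endothelial identity, had 102 and 141 counts (0.15, -0.22 to 0.54) and 85 and 94 counts (-0.17, -0.61 to 0.27), and both ranges included 0.

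**Figure D2:**
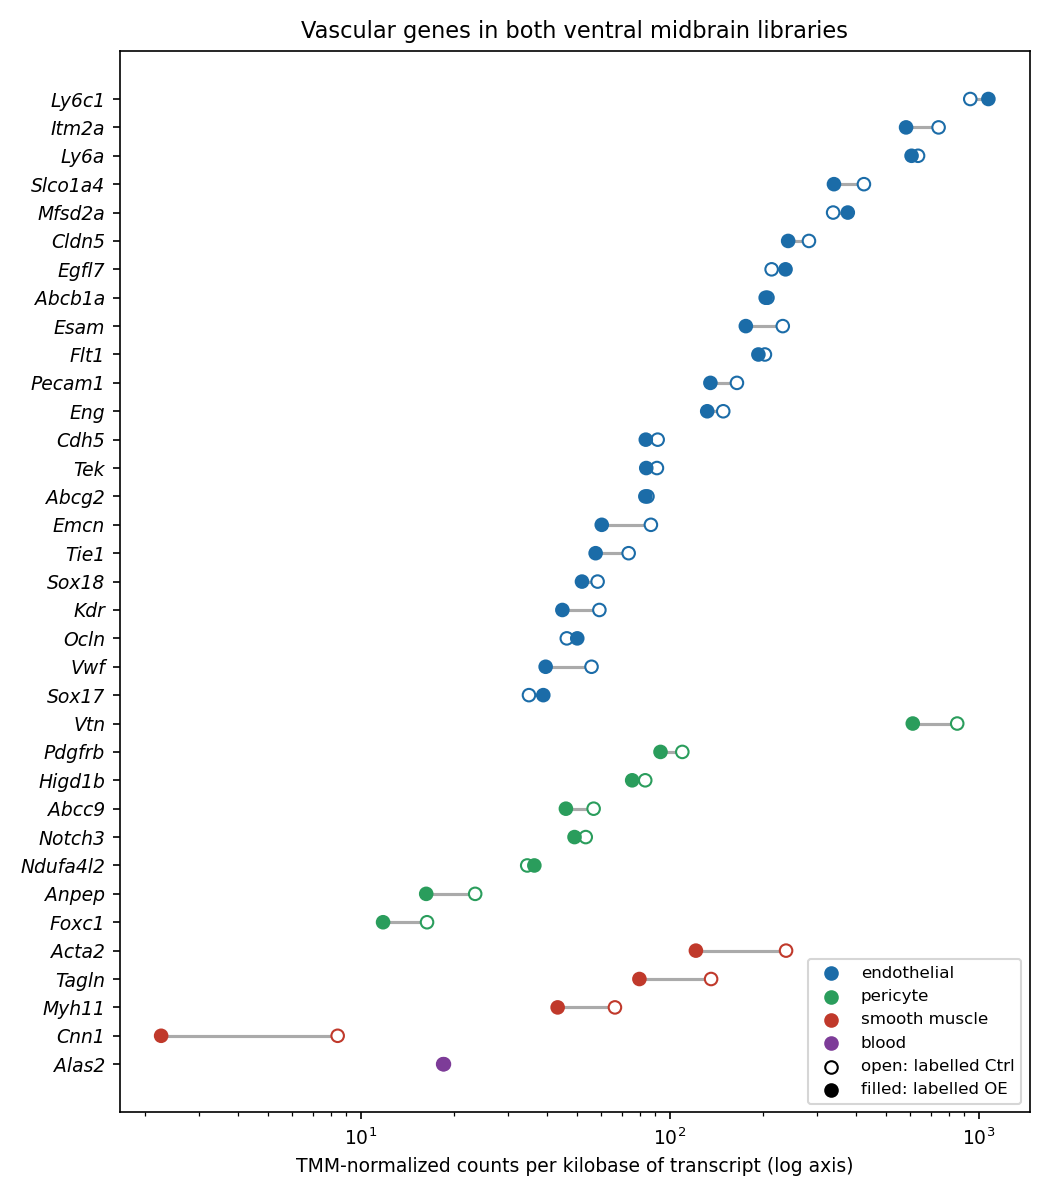
Levels of the 35 genes in TMM-normalized counts per kilobase of the longest coding transcript on a logarithmic x axis, with genes in rows by cell type. Open points are the library labelled Ctrl and filled points the library labelled OE, and the pairs of Acta2, Tagln, Myh11 and Cnn1 are spread more widely than those of most endothelial genes.

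Levels per kilobase of transcript allow the genes to be compared with each other. Endothelial genes ranged from 37.0 normalized counts per kilobase for Sox17 to 1008 for Ly6c1, as the mean of both libraries. Itm2a followed at 663, Ly6a at 622, Slco1a4 at 383 and Mfsd2a at 358. Among pericyte genes Vtn led with 733 and Foxc1 was lowest with 14.1. The contractile genes were at 180 for Acta2, 108 for Tagln, 55.0 for Myh11 and 5.34 for Cnn1. Acta2 itself was at 238 under the label Ctrl, above Egfl7 at 214, and at 122 under the label OE, below Pecam1 at 136. The lengths are those of the longest coding transcript in GENCODE M21, which may not be the isoform used in this tissue.

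**Figure D3:**
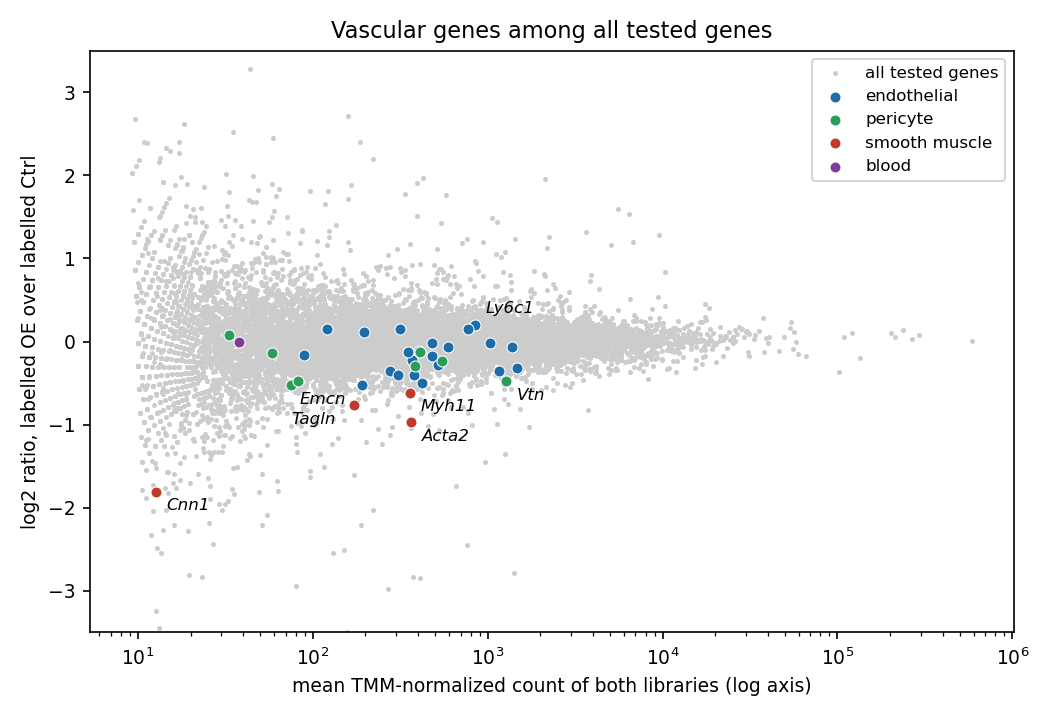
Mean TMM-normalized count of both libraries on a logarithmic x axis and log2 ratio, labelled OE over labelled Ctrl, on the y axis for all 15246 tested genes in grey, of which 34 lie beyond the y axis, and the vascular genes in colour. Acta2, Tagln, Myh11 and Cnn1 lie well below 0, with at most 3.43% of all tested genes lower than any of them, and Ly6c1 is the highest member at 0.19.

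Blood genes were represented by a single member. Alas2, the erythroid enzyme that starts haem synthesis, had 34 and 42 counts (-0.0083, -0.70 to 0.69), which is too few to resolve a difference of the size seen in the vessel wall. The globin symbols on the list had no row, but their close relatives did. Hba-a2, the second α-globin gene, had 972 and 1612 counts (0.42, 0.30 to 0.53). Its coding transcript is identical to that of Hba-a1 over 96.9% of the shorter one, so its row may hold reads of both. The β-globin genes Hbb-bs and Hbb-bt, named here after their values were seen, had 1041 and 1429 counts (0.14, 0.028 to 0.26) and 174 and 221 counts (0.035, -0.26 to 0.33). The α-globin ratio was above those of both β-globin genes. Other abundant genes of the erythroid list were below 0. Bnip3l, which serves the removal of mitochondria in maturing red cells and is also expressed outside them, had 3439 and 3868 counts (-0.14, -0.21 to -0.077). Bpgm, which makes the haemoglobin ligand bisphosphoglycerate, was at -0.14 (-0.25 to -0.025), and Fech, the last enzyme of haem synthesis, at -0.21 (-0.33 to -0.086). The whole list of erythroid and platelet genes, the 3 globin genes included, had 25 rows, of which 7 were at 0 in both libraries. Of the 10 that averaged 10 counts or more, 3 were higher and 2 lower past log2 0.2, with a median of -0.038, so the blood genes showed no common side. Whether the brains were perfused before RNA extraction is not given in the sources used here.

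Other genes of the vessel wall, outside the 38 names, were read from lists chosen for the same cells. Of 59 further endothelial genes, 27 were lower and 6 higher past log2 0.2, with a median of -0.17. Slc2a1, the glucose transporter GLUT1, had 2517 and 3551 counts (0.18, 0.11 to 0.26), and Xdh, xanthine dehydrogenase, had the highest ratio among those with a mean of at least 100 counts, at 0.53 (0.26 to 0.81). Lef1, a nuclear partner of β-catenin, had the lowest, at -1.60 (-1.97 to -1.26), but it is also a marker of thalamic neurons and stood in that list as well. Of 34 further pericyte and smooth muscle genes, 19 were lower and 4 higher, with a median of -0.24. Mcam, the adhesion molecule CD146, was the lowest of the well-counted genes at -0.53 (-0.68 to -0.38), and Rgs5, a regulator of G-protein signalling typical of pericytes, was at -0.15 (-0.30 to -0.0077). Sncg, γ-synuclein, was the highest, at 1.08 (0.95 to 1.20), and is abundant in dopaminergic neurons too. With it, the summed counts of the list had a ratio of 0.0077 (-0.037 to 0.053), on the other side of 0 from the median. The 4 smooth muscle members do not stand for every smooth muscle gene. Cald1, Myl9 and Mylk of that list, with 309 to 728 counts, were at -0.25 (-0.40 to -0.10), -0.22 (-0.45 to 0.0060) and -0.078 (-0.30 to 0.14). Lmod1, Des and Casq2, with at most 70 counts, were at -0.59, -0.57 and 0.17, and their ranges included 0.

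Ligands, receptors and targets of the VEGF, angiopoietin, PDGF and Notch pathways showed no common side, with 9 of 32 tested genes lower and 7 higher by more than log2 0.2 and a median of -0.023. Vegfa, the ligand of Kdr and Flt1, had 2009 and 2322 counts (-0.10, -0.19 to -0.017). S1pr1, the sphingosine 1-phosphate receptor, had a ratio of -0.25 (-0.33 to -0.18), and Ptprb, the phosphatase that restrains Tek, -0.29 (-0.41 to -0.16). Hey2, a Notch target of arteries, was the highest of the well-counted genes at 0.41 (0.0027 to 0.84). For the Wnt pathway that maintains the barrier, 8 of 19 genes were lower and 2 higher, with a median of -0.13. Of these, Ctnnb1, or β-catenin, was at -0.025 (-0.069 to 0.019), Lrp6, a Wnt co-receptor, at -0.22 (-0.34 to -0.10), and the receptor Adgra2 (row Gpr124), which is needed for brain vessel growth, at 0.39 (0.13 to 0.65). The lowest of the 19 was Lef1, at -1.60. The Wnt list is not independent of the others, since 7 of its genes also stand in another list or among the members, as Sox17 and Mfsd2a do.

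Arterial and venous endothelial genes were read apart, because Nr2f2 is a venous gene. Of 20 arterial genes 9 were lower and 4 higher, with a median of -0.11, and of 17 tested venous genes 10 were lower and 4 higher, with a median of -0.42, or -0.32 over the 16 genes without Nr2f2. Efnb2, the arterial ligand ephrin-B2, had 208 and 364 counts (0.49, 0.24 to 0.75), while Unc5b, a netrin receptor of arteries that neurons also express, was at -0.48 (-0.59 to -0.37) and Fbln5, an elastic fibre protein, at -0.52 (-0.87 to -0.17). Most abundant among the venous genes were Tmsb10, Flrt2 and Nrp2, which neurons also express, with ratios of 0.62, 0.23 and 0.31. The summed venous counts had a log2 ratio of -0.057, or 0.024 without Nr2f2, so without Nr2f2 the median and the sum lie on different sides of 0. The member Sox17 is counted in the arterial list and the member Vwf in the venous list.

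**Figure D4:**
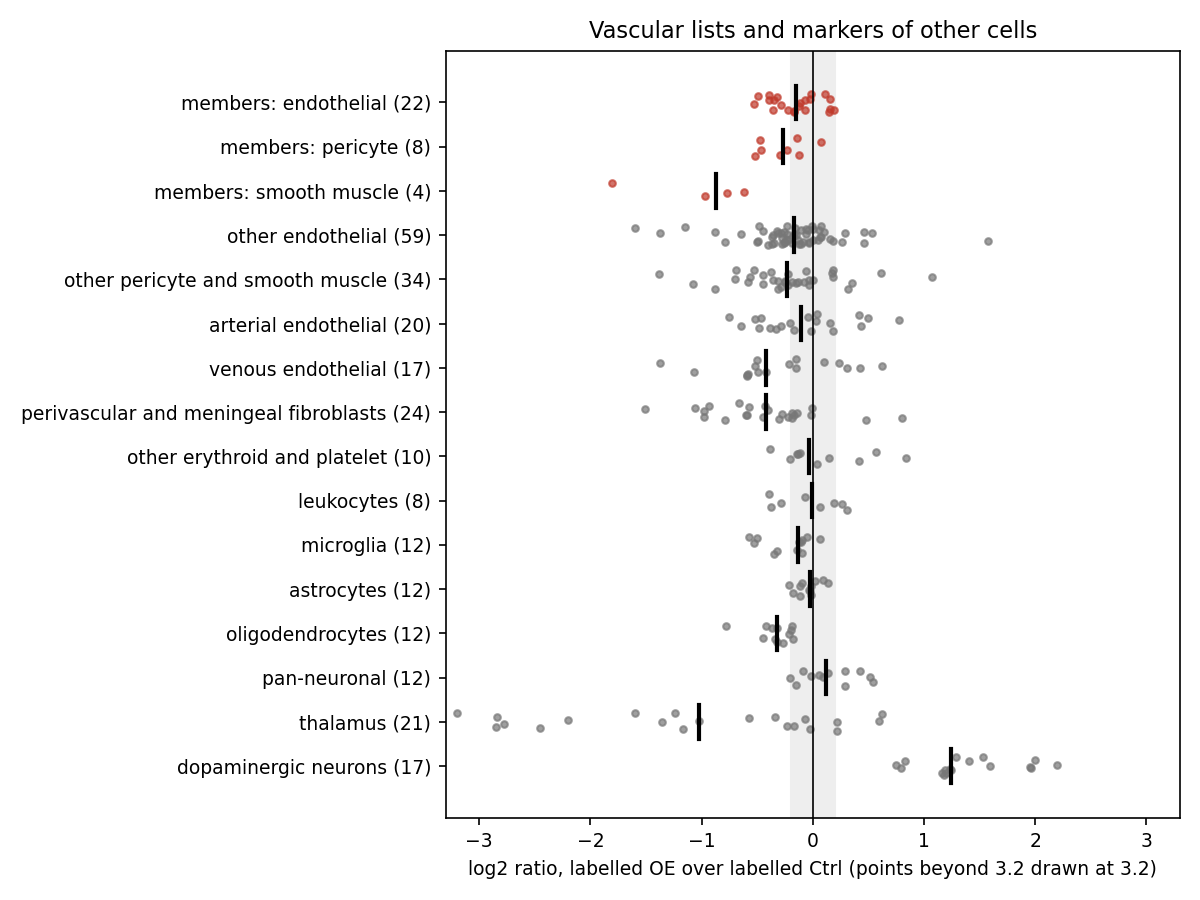
Log2 ratios, labelled OE over labelled Ctrl, of the tested genes in each list on the x axis, with lists in rows and the number of genes in brackets. Points are genes, black bars are medians, and the grey band spans -0.2 to 0.2. All smooth muscle members and all oligodendrocyte genes lie below 0, as do most fibroblast and thalamus genes, and all dopaminergic genes lie above 0.

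Markers of other cells differed as well, and their part in the vascular values was not tested. Of 24 tested genes of perivascular and meningeal fibroblasts, which share vessel sheaths with smooth muscle, 16 were lower and 2 higher, with a median of -0.42. Their summed level was 14018 and 12769 normalized counts, and 0 of the 26 listed genes were at 0 in either. Ptgds alone held 9067 and 8231 of these normalized counts, so the sum mostly follows this gene, at -0.14 (-0.18 to -0.096). Fmod, the collagen-binding fibromodulin, was the lowest at -1.51 (-1.95 to -1.09), and Igf2, expressed in leptomeninges, was at -0.45 (-0.61 to -0.30). Spp1, or osteopontin, went the other way at 0.80 (0.68 to 0.92). All 12 oligodendrocyte genes were below 0, with a median of -0.32 and a summed level of 401749 and 335755. Microglia genes had a median of -0.13 (7347 and 6050), astrocyte genes -0.029 (92107 and 86768) and general neuronal genes 0.12 (140432 and 156659). Dopaminergic genes, with a median of 1.24 (29831 and 70710), and thalamic genes, with -1.02 (34139 and 23826), lay furthest from 0. In the lists given here from oligodendrocytes to thalamus, only Gbx2, a thalamic gene, was at 0 counts in a library, the one labelled OE. Ttr, the transthyretin of the choroid plexus, had 426 and 67 counts (-2.97, -3.38 to -2.61), but of the 11 tested genes of its list 3 were lower and 3 higher past log2 0.2, with a median of 0.051. Slc39a4 was the highest of the well-counted ones, at 1.04 (0.61 to 1.49), and Plvap, a marker of the fenestrated capillaries of the plexus named after its value was seen, was at 0.051 (-0.34 to 0.44). Leukocyte genes were sparse. Of 24, only 8 averaged 10 counts or more, with 3 lower and 2 higher and a median of -0.0050, and Cd8a and S100a8 were at 0 in both libraries.

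Transcript length moved slightly with the ratio. Over all tested genes with a known length, the median was 0.064 for the 3349 genes with the shortest transcripts, up to 2123 bases, and -0.037 for the 3349 genes with the longest, from 4795 bases. Of the smooth muscle genes, Acta2 and Tagln, at 2035 and 1595 bases, fall in the shortest class and Myh11, at 6549 bases, in the longest, while Cnn1, at 2381 bases, lies between them. The part of length in the vascular ratios was not tested.

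COUP-TFII recognizes repeats of the hexamer AGGTCA, so this half-site was searched on both strands in the 250 bases before each RefSeq start. Among all promoters, 14.02% held it, and 8 of the 30 promoters of the listed genes did, that of Hba-a1 being counted among the 30. The 8 belong to Abcg2, Alas2, Egfl7, Emcn, Ly6c1, Mfsd2a and Ocln, and Abcg2, Egfl7, Ly6c1 and Ocln also have promoters without it. Genes with the half-site lay on both sides of 0, from Emcn at -0.53 to Ly6c1 at 0.19. Of members with a promoter, all 4 with a ratio above 0 held it in at least 1 promoter, against 3 of 19 below 0. Of those 3, Abcg2 and Alas2 were at -0.023 and -0.0083. Of the 4, Egfl7, Ly6c1 and Ocln each have more than 1 promoter, which gives more chances of a match. Of the 19, only Abcg2 has more than 1. The ranges of Egfl7 and Ocln included 0, and the value of Ly6c1 is uncertain. The split by side of 0 was read after the values were seen and was not tested. Emcn and Mfsd2a are shown as examples from either side, each with a single promoter, with capitals marking the half-site on either strand. Emcn is on the plus strand at chr3:137340828-137341077 and Mfsd2a on the minus strand at chr4:122961189-122961438 (GRCm38.p6).
Emcn: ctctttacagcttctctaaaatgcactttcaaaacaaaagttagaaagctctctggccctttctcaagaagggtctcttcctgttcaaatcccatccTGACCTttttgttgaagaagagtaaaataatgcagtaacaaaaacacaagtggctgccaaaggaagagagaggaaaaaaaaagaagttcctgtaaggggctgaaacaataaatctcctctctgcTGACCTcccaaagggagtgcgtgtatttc
Mfsd2a: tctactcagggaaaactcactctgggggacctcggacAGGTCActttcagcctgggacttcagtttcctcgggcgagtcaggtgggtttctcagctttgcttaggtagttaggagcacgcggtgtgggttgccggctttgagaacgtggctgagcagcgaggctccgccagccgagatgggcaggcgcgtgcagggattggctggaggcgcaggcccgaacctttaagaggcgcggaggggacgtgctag
The half-site begins 153 and 29 bases before the start of Emcn and 213 bases before that of Mfsd2a. These single half-sites describe letters, and no binding was measured here.

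The ETS motif AGGAAG, bound by factors that endothelial genes depend on, was found for 10 of 15 endothelial genes with a promoter, among them Eng, Flt1, Tie1 and Emcn, and in 13 of their 21 promoters, or 61.9%. Of all promoters, 29.5% held it. The 2 smooth muscle promoters and the 5 pericyte promoters held none. The erythroid GATA motif AGATAA was found for Alas2 and Itm2a, in 2 of the 30 promoters of the listed genes, or 6.67%, against 9.99% of all promoters. AGGAAG and AGGTCA share their first 3 letters. Genes with and without the ETS motif fell on both sides of the threshold, as Tie1 (-0.35) and Flt1 (-0.070) held it and Kdr (-0.40) and Tek (-0.11) did not.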

How the data were processed

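RNA of the ventral midbrain was measured in 2 libraries, 1 for each genotype. The tissue was snap-frozen, and a sequencing company made stranded libraries from polyadenylated RNA, sequenced read pairs of 50 bases and processed them in house. The values deposited by the authors are expected counts, that is, estimated reads per gene from RSEM, with no scaling between libraries. The submitters' processing notes name mm10; the aligner, the RSEM version and the annotation are not given in the sources used here. Each column was assigned by the number it shares with a sample title.

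TMM factors came from edgeR 4.0.16 (R 4.3.3), and ratios, exact intervals and counts of genes from Python 3.11.15, scipy 1.17.1, numpy 2.4.6 and pandas 2.3.3, after rounding expected counts for the intervals. Tested genes averaged 10 counts or more over both libraries, whose totals of 16984336 and 21326632 counts set the precision. No p-value is given, since 1 library per genotype leaves no spread between mice. The steps were tested on simulated data. The alternatives were scaling by total counts, the upper quartile or DESeq2 1.42.0 size factors, thresholds of log2 0.5 and 1, different minimum counts, a larger pseudocount (5) and a required interval. Context lists matched 8 rows through older RefSeq symbols, and 2 symbols had no row. Genes were named from all members, the gene targeted by the allele, Th, and in each context list up to 3 with the highest mean and those with the highest and lowest ratio at a mean of at least 100 counts. Of other genes, Hbb-bs, Hbb-bt, Plvap, Cald1, Myl9, Mylk, Lmod1, Des, Casq2, Slco1c1, Slco2b1, Slc22a8 and Slc7a5 were chosen after their values were seen. So were Slc7a1, Slc16a1, Slc38a3 and Slc38a5, and those named for being at 0, or for near-identity to a member. The members and lists were chosen with earlier results of these data known. Lengths are from GENCODE M21, promoters from RefSeq (GRCm38.p6), and figures were drawn with matplotlib 3.10.9.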

Additional observations from a re-analysis of the deposited data

How the results depend on the processing

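No paired analysis was possible because there was only 1 library of each genotype, and for the same reason no library could be left out. Each median kept its side of 0 under scaling by total counts, the upper quartile or DESeq2 size factors, a pseudocount of 5 and other count minimums, except that of the single blood gene: from -0.16 to -0.13 for endothelial, -0.28 to -0.25 for pericyte, -0.88 to -0.77 for smooth muscle and -0.24 to -0.21 for all members, while Alas2 ranged from -0.023 to 0.0052. Of the 35 single genes, only Alas2 changed sign under a scaling or pseudocount, and the largest shift by a scaling was 0.0152 (log2). With the upper quartile, 1 member, Ly6c1, was higher by more than log2 0.2, against 0 with TMM. The count of members lower than the threshold was 18 and stayed 18 where the counting interval also had to exclude 0, and was 6 past log2 0.5 and 1 past log2 1, which by construction fewer genes can pass; of all tested genes, 5.03% and 1.28% were lower past these thresholds. Depth limits the genes under about 100 counts, such as Higd1b, Ndufa4l2, Cnn1 and Alas2, whose intervals are the widest.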
